A study of Homo sapiens with 4 samples.

Results

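The genes described here are 50 genes of mitosis: the cyclins, kinases and phosphatases that drive cell division, the proteins of the kinetochore, the kinesins, and the genes of protein degradation, the chromosomal passenger complex, the spindle, cytokinesis and chromosome structure. They were listed by name, at a time when earlier results of these data were known. Each was represented by the brightest row of the deposited table that named that gene alone. Of the 50 genes, 49 had such a row. CENPA, the histone H3 variant of centromeres, was on a row that also names SLC35F6, so it is given no value. A further 9 genes lay among the dimmest rows and were left out of the tests, which leaves 40 tested genes among 14147 tested in all.

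HepG2 cells, an established hepatocellular carcinoma line, were transfected with an antisense inhibitor of the microRNA miR-191 (anti-miR-191, 2 arrays) or with a negative control anti-miR (anti-miR-NC, 2 arrays). Both groups received the lipid reagent Oligofectamine, and no untransfected cells are among the samples. Transfections were repeated in 2 independent experiments, and each contributed 1 array of either group. The dose of the inhibitor and the time after transfection are not stated in the labels. The values are RMA intensities on the log2 scale, in which 1 unit is a doubling. The median over all rows was 4.38 and 4.42 after anti-miR-191 and 4.37 and 4.43 in controls. The interquartile range, a measure of spread, was 3.38 and 3.43 after anti-miR-191 and 3.18 and 3.24 in controls. It was thus wider on both treated arrays. RMA intensity has no counting depth, so the number of arrays limits the precision.

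Entry into mitosis is driven by CDK1 bound to cyclin B, which is held back by the kinase WEE1 and released by the CDC25 phosphatases. Chromosomes attach to spindle microtubules through the kinetochore, kinesin motors move chromosomes and spindle poles, and the anaphase-promoting complex (APC/C) marks cyclin B and securin for degradation so that the sister chromatids can part. The mRNAs of many of these proteins peak together in G2 and mitosis, through promoters that often hold a CCAAT box and a cell cycle genes homology region (CHR). In a growing hepatoma culture these mRNAs follow the number of dividing cells as well as their amount per cell. The arrays measured RNA of whole cultures, so fewer cells in mitosis and less mRNA per cell cannot be told apart.

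The sequence targeted by the treatment is that of mature miR-191, shown here with its seed (bases 2 to 8) in capitals. It lies on the minus strand at chr3:49020672-49020694 of GRCh38.p14, as RefSeq gives it.
hsa-miR-191-5p: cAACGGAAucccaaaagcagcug

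Promoter sequence from RefSeq (GRCh38.p14), from 250 bases before to 50 after each annotated start, was in the table for 45 of the 50 genes. The CHR was searched as the letters TTTGAA or TTCGAA and the CCAAT box as CCAAT, each on both strands. Before the start site 25 of the 45 genes held the CHR letters in at least 1 of their windows (55.6%), against 4705 of all 27305 genes of the table (17.2%). CCAAT was found before the start of 36 of the 45 genes, against 10102 of the 27305 (37.0%). Both motifs stood before the start of 22 of the 45 genes (48.9%), against 6.24% of all genes. These are matches of letters in 1 window and not sites shown to be bound.

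The following windows of 30 bases all lie before the start site and are shown because the results below turn on these genes. The first 6 show the CHR letters in capitals and the last 2 show the CCAAT box in capitals. CDC25C and CDC25B each have 4 windows in the table, and the one shown holds the CHR letters. In PTTG1 the capitals are the box as it reads on the other strand, and it overlaps a forward CCAAT.
CDC25C (chr5:138331817-138331846, minus strand): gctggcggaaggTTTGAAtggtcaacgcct
PLK1 (chr16:23678848-23678877, plus strand): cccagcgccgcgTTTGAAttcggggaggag
CCNB2 (chr15:59105105-59105134, plus strand): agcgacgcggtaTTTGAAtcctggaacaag
KIF23 (chr15:69414282-69414311, plus strand): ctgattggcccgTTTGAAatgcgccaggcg
CDC25B (chr20:3796260-3796289, plus strand): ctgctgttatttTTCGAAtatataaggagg
CDC20 (chr1:43358904-43358933, plus strand): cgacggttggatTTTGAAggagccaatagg
SPC24 (chr19:11155839-11155868, minus strand): gtatcaaaaaatCCAATggaaagcaacctc
PTTG1 (chr5:160421795-160421824, plus strand): gcggaagagccaATTGGgccgcgagttgtg

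Most mitotic genes did not pass a test for a difference between anti-miR-191 and control cultures. Of the 40 tested, 3 rose (CDC25C, CENPN and KIF2C), 3 fell (SPC24, PTTG1 and UBE2C) and 34 did not pass the test, which was limma's fit with the experiment as a block and an adjusted p under 0.05 over all genes tested. Among all 14147 genes the same fit called 13.9%, with 10.1% higher and 3.77% lower after anti-miR-191. The 6 called genes are 15% of the 40, with 7.5% in each direction, so the overall share lies near the background. The median change of the 40 genes was -0.02 on the log2 scale, against 0.01 over all genes tested, and the changes ran from -0.93 to 0.98. The median size of the change, whatever its sign, was 0.23, against 0.20 over all genes tested.

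The precision allows a bound on the change in RMA values for most of the others. For 35 of the 40 genes the 95% interval of the change lay within a 2-fold change either way, and for 17 it lay within 1.5-fold. The widths lean mostly on the spread shared over all genes (6.60 prior degrees of freedom against 1 residual), and less on each gene's own. The 5 genes whose interval reached past 2-fold were CDC25C, CENPN, KIF2C, SPC24 and PTTG1. For 19 of the 40 the control mean lay below 5.50. That is the highest control level among markers of other cell types, described below, with LYZ left out. Such rows are not shown to be above background, so their intervals bound the RMA values and not the amount of RNA. Without the experiment as a block, limma called 1 of the 40 (SPC24), against 3.91% of all genes. In that fit 7 of the 40 had an unadjusted p under 0.05, against 3048 of all 14147 genes. The arrays of both groups did not overlap for 6 genes that were higher and 9 that were lower after anti-miR-191, which is 15% and 22.5% of the 40, against 29.4% and 23.8% of all genes tested.

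**Figure D1:**
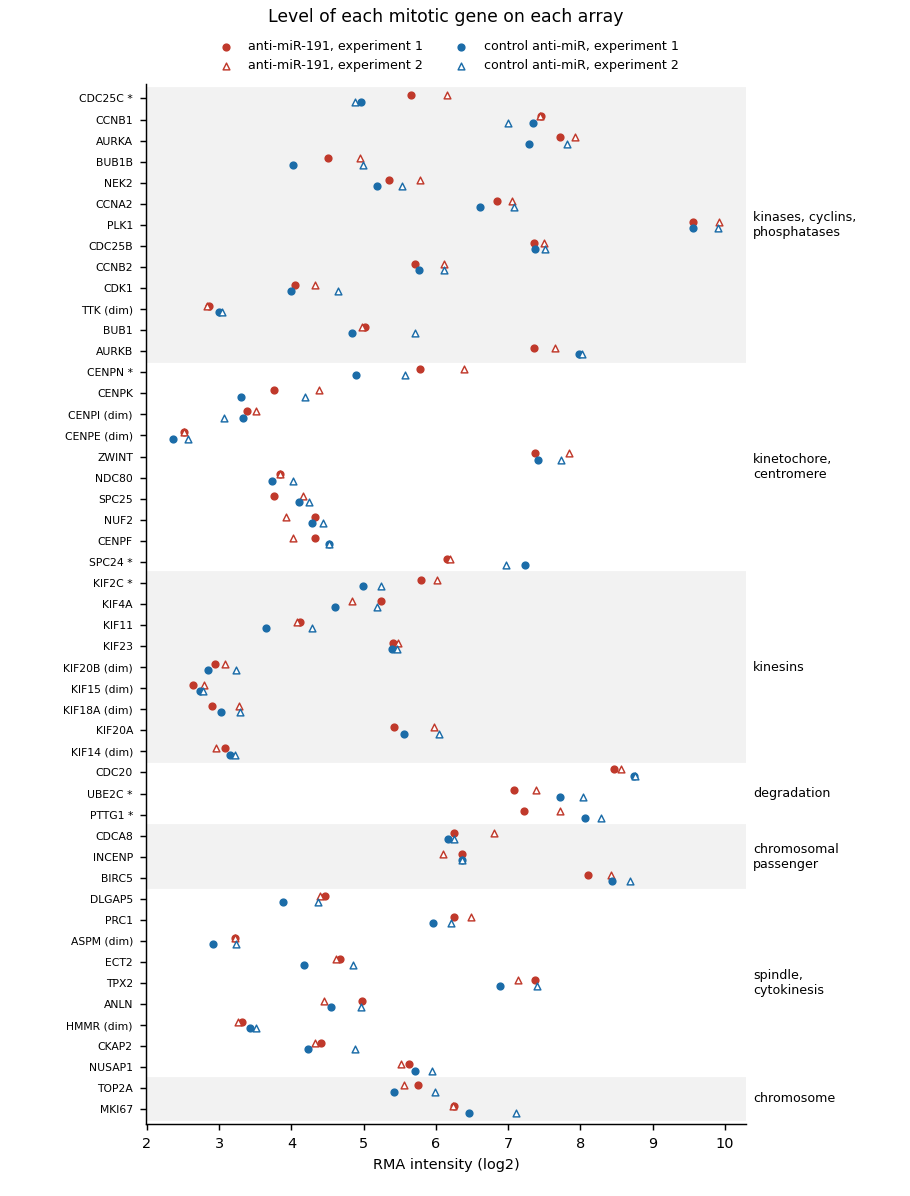
RMA intensity (log2, horizontal axis) of the 49 measured mitotic genes on each of the 4 arrays, grouped by role; red marks anti-miR-191 and blue the control anti-miR, circles experiment 1 and triangles experiment 2, stars the 6 genes past the threshold and "dim" the 9 left out of the tests. For CDC25C, CENPN and KIF2C both red points lie to the right of both blue points, and for SPC24, PTTG1 and UBE2C to the left.

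Among the cyclins, kinases and phosphatases, CDC25C rose and the other 11 tested genes did not pass, beside 10.1% called higher over all genes. CDC25C, a phosphatase that activates CDK1 at the entry into mitosis, read 5.65 and 6.15 in the anti-miR-191 arrays of experiments 1 and 2, against 4.96 and 4.88 in the control arrays. Both treated arrays lay above both controls. It rose by 0.98 ± 0.18 (SE, 2 arrays per group), or 1.97-fold on the RMA scale, with limma's adjusted p = 0.0132 in the paired fit and 0.0548 without the block. The control mean of CDC25C lay below the marker level of 5.50, so the fold could be a lower bound. The related CDC25B, which acts on the same kinase at the centrosome, read 7.35 and 7.49 after anti-miR-191 and 7.38 and 7.50 in controls. Its change of -0.02 had a 95% interval from -0.35 to 0.32.

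The kinase that drives mitosis and its cyclins did not pass the test. CDK1 read 4.05 and 4.33 after anti-miR-191 and 3.996 and 4.64 in controls, and its groups overlapped (change -0.13 ± 0.16). CCNB1, the main cyclin B, read 7.46 and 7.44 after anti-miR-191 and 7.34 and 7.003 in controls. Its groups did not overlap, and the change of 0.28 ± 0.16 did not pass (adjusted p = 0.296). CCNB2, the other mitotic cyclin B, read 5.71 and 6.12 after anti-miR-191 and 5.77 and 6.11 in controls. CCNA2, the cyclin A of S phase and G2, had a change of 0.10 ± 0.15. Neither of these cyclins separated the groups.

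Nor did the Polo-like and Aurora kinases pass. PLK1, which acts at centrosomes, kinetochores and the midbody, read 9.56 and 9.92 after anti-miR-191 and 9.56 and 9.91 in controls. Within each experiment its arrays thus differed by less than 0.01, while experiment 2 stood above experiment 1 in both groups, and the 95% interval of the change ran from -0.33 to 0.34. AURKA, the Aurora kinase of the spindle poles, read 7.71 and 7.93 after anti-miR-191 and 7.28 and 7.81 in controls (change 0.27 ± 0.15). AURKB, the kinase of the chromosomal passenger complex, read 7.36 and 7.65 after anti-miR-191 and 7.98 and 8.01 in controls. Both treated arrays of AURKB lay below both controls, with a change of -0.49 ± 0.15, an adjusted p of 0.0734 and an unadjusted p of 0.0125 in the paired fit.

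The checkpoint kinases showed no shared direction. BUB1, which helps to recruit checkpoint proteins to kinetochores, read 5.01 and 4.98 after anti-miR-191 and 4.84 and 5.71 in controls, so its change was 0.17 in experiment 1 and -0.73 in experiment 2. BUB1B, which encodes the checkpoint protein BUBR1, had changes of 0.48 and -0.04. NEK2, a kinase of centrosome separation, had changes of 0.17 and 0.25 and a mean of 0.21 ± 0.14. TTK, the kinase that starts the spindle checkpoint, was among the dim genes, with 2.86 and 2.83 after anti-miR-191 and 3.001 and 3.05 in controls.

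At the kinetochore 1 gene rose and 1 fell among 8 tested, beside 10.1% called higher and 3.77% called lower over all genes. CENPN, a subunit of the constitutive centromere network that binds the CENPA nucleosome, read 5.78 and 6.39 after anti-miR-191, against 4.89 and 5.57 in controls. The changes were 0.89 and 0.82, and each treated array lay above both controls. CENPN rose 1.81-fold on the RMA scale (0.86 ± 0.14, adjusted p = 0.0104 in limma's paired fit), with the same limit on its control level as CDC25C. The adjusted p was 0.162 without the block, where the difference between experiments counts as error.

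SPC24 is a subunit of the NDC80 complex, the rod that holds microtubules at the outer kinetochore. It read 6.15 and 6.19 after anti-miR-191, against 7.23 and 6.96 in controls, and both treated arrays lay below both controls. SPC24 fell by 0.93 ± 0.15 on the log2 scale (1.90-fold lower), with limma's adjusted p = 0.0101 in the paired fit and 0.0383 without the block. The other subunits of the same 4-part complex did not pass. SPC25, which pairs with SPC24, had changes of -0.34 and -0.08, NUF2 had 0.04 and -0.51, and NDC80 had 0.11 and -0.18. Their mean changes were -0.21 ± 0.15, -0.23 ± 0.18 and -0.03 ± 0.15. A difference between the change of SPC24 and theirs was not tested.

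The remaining kinetochore genes did not pass. CENPF, a large protein of the outer kinetochore and nuclear envelope, read 4.33 and 4.03 after anti-miR-191 and 4.52 in both control arrays, a change of -0.34 ± 0.15 with groups that did not overlap (adjusted p = 0.197). CENPK, another subunit of the centromere network, had changes of 0.46 and 0.18. ZWINT, which links the outer kinetochore to checkpoint proteins, read 7.37 and 7.84 after anti-miR-191 and 7.41 and 7.73 in controls, a change of 0.03 with a 95% interval from -0.31 to 0.37. CENPI and the kinetochore motor CENPE were dim, with changes of 0.05 and 0.44 for CENPI and of 0.16 and -0.05 for CENPE.

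Of the kinesins 5 were tested and 1 rose, beside 10.1% called higher over all genes. KIF2C, a kinesin that depolymerises microtubules and corrects wrong attachments at centromeres, read 5.79 and 6.02 after anti-miR-191, against 4.98 and 5.24 in controls. Its changes of 0.80 and 0.78 were nearly equal, and the groups did not overlap. KIF2C rose 1.73-fold on the RMA scale (0.79 ± 0.14, adjusted p = 0.0132 in limma's paired fit and 0.0617 without the block). Its control level has the same limit as that of CDC25C.

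The motors of the spindle and the midbody did not pass. KIF23, a kinesin of the centralspindlin complex in cytokinesis, read 5.41 and 5.47 after anti-miR-191 and 5.39 and 5.46 in controls, a change of 0.02 with a 95% interval from -0.32 to 0.35. KIF20A, another motor of cytokinesis, had changes of -0.14 and -0.06. KIF11, which pushes the spindle poles apart, read 4.13 and 4.08 after anti-miR-191 and 3.65 and 4.29 in controls. KIF4A, a motor of chromosome arms whose near-identical copy KIF4B may share probes, read 5.24 and 4.83 after anti-miR-191 and 4.605 and 5.18 in controls. In both KIF11 and KIF4A the change was upward in experiment 1 (0.48 and 0.64) and downward in experiment 2 (-0.21 and -0.35). KIF14, KIF15, KIF18A and KIF20B were dim, with values between 2.64 and 3.29 on all arrays.

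All 3 degradation genes read lower after anti-miR-191 in both experiments, as did 33% of all genes tested. Of the 3, 2 passed, against 3.77% of all genes called lower. These shares rest on 3 genes and were not tested as a set. PTTG1 encodes securin, the inhibitor of separase that the APC/C destroys at anaphase. It read 7.21 and 7.72 after anti-miR-191, against 8.06 and 8.28 in controls, with no overlap. PTTG1 fell by 0.70 ± 0.15 (1.62-fold lower, limma's adjusted p = 0.0234 in the paired fit and 0.126 without the block). UBE2C, the ubiquitin-conjugating enzyme that works with the APC/C, read 7.09 and 7.38 after anti-miR-191, against 7.71 and 8.03 in controls, and its groups did not overlap either. UBE2C fell by 0.64 ± 0.14 (1.55-fold lower, limma's adjusted p = 0.0260 in the paired fit and 0.120 without the block). CDC20, the activator of the APC/C in mitosis, read 8.46 and 8.56 after anti-miR-191 and 8.73 and 8.75 in controls, a change of -0.23 ± 0.14 that did not pass (adjusted p = 0.354).

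Besides AURKB, the chromosomal passenger complex holds survivin, borealin and INCENP, and none of these 3 passed. BIRC5, which encodes survivin, read 8.10 and 8.42 after anti-miR-191 and 8.44 and 8.69 in controls (change -0.30 ± 0.14, adjusted p = 0.222). A dimmer BIRC5 row, whose listed transcripts differ, had changes of -0.62 and -0.79. CDCA8, which encodes borealin, read 6.24 and 6.80 after anti-miR-191 and 6.17 and 6.25 in controls, a change of 0.32 ± 0.17. INCENP, the scaffold of the complex, read 6.36 and 6.10 after anti-miR-191 and 6.36 and 6.37 in controls.

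None of the 7 tested spindle and cytokinesis genes passed, nor did TOP2A or MKI67. PRC1, which bundles the microtubules of the spindle midzone, read 6.25 and 6.49 after anti-miR-191 and 5.96 and 6.21 in controls, so its groups did not overlap (change 0.28 ± 0.14, adjusted p = 0.250). DLGAP5, a spindle protein that stabilises kinetochore fibres, read 4.47 and 4.39 after anti-miR-191 and 3.88 and 4.36 in controls (0.31 ± 0.18). NUSAP1, which binds microtubules near chromosomes, read 5.63 and 5.52 after anti-miR-191 and 5.71 and 5.94 in controls (-0.25 ± 0.16). These 3 had the largest mean changes of their role, and all 3 intervals include 0. MKI67, the proliferation antigen Ki-67 that coats mitotic chromosomes, read 6.25 and 6.23 after anti-miR-191 and 6.45 and 7.10 in controls. Its change of -0.54 ± 0.19 missed the threshold (adjusted p = 0.107), and most of it came from experiment 2. TOP2A, the topoisomerase that untangles chromosomes, had changes of 0.34 and -0.43. HMMR and ASPM, a microtubule-binding protein and a spindle pole protein, were dim.

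**Figure D2:**
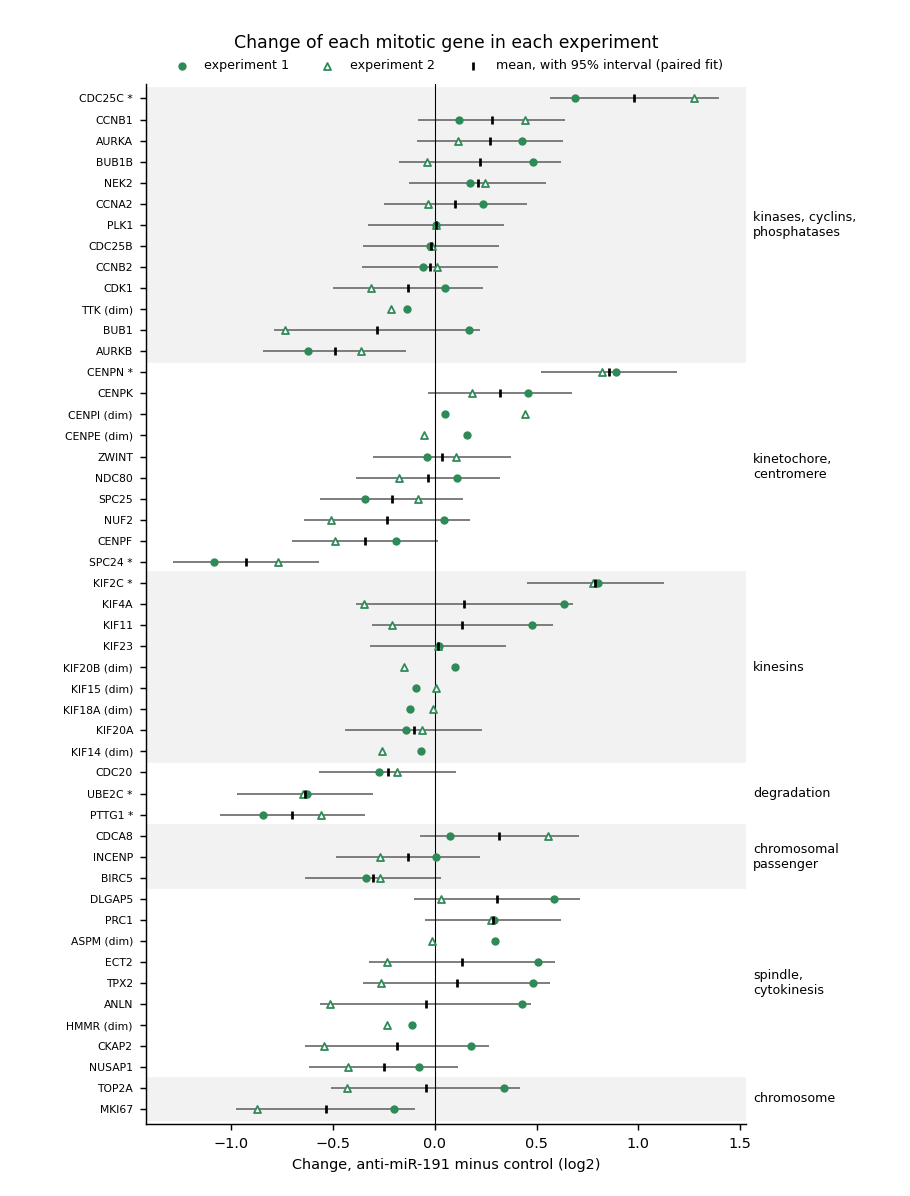
Change of each mitotic gene (treated minus control, log2, horizontal axis) in experiment 1 (filled circles) and experiment 2 (open triangles), with the mean and its 95% interval from limma's paired fit for the 40 tested genes (black bars and grey lines); dim genes have no interval. PLK1, CDC25B, CCNB2 and KIF23 sit at 0 in both experiments, and ANLN, KIF4A and TOP2A lie on opposite sides of 0.

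For some mitotic genes the difference between the arrays had opposite signs in the experiments. None of these passed the test, but the paired fit takes such disagreement as error, so they could hardly have passed. Of the 40 genes, 14 were higher after anti-miR-191 in experiment 1 and lower in experiment 2 (35% of them, against 15.9% of all genes tested), while 2 showed the reverse (5%, against 14.6%). The median change of the 40 was 0.09 in experiment 1 and -0.18 in experiment 2, against 0.02 and 0.01 over all genes. Among the 14 were KIF4A, TOP2A and ANLN, with changes of at least 0.34 in size in each direction, and also CCNA2, CDK1, BUB1, BUB1B, NUF2, NDC80, KIF11, INCENP, TPX2, CKAP2 and ECT2. Some of these differences were near 0, such as -0.03 for CCNA2 and -0.04 for BUB1B in experiment 2. With 1 array per group in each experiment, this difference was not tested.

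The control arrays of the experiments stood apart for these genes. In 36 of the 40 the control of experiment 2 read higher than the control of experiment 1, by a median of 0.33, whereas the median over all genes was -0.01. Between the anti-miR-191 arrays experiment 2 was higher in 25 of the 40, by a median of 0.17. ANLN, a scaffold of the cleavage furrow, read 4.97 and 4.44 after anti-miR-191 and 4.55 and 4.96 in controls. ECT2, the activator of RhoA at the furrow, read 4.68 and 4.62 after anti-miR-191 and 4.17 and 4.85 in controls. TPX2, which activates AURKA on the spindle, read 7.37 and 7.13 after anti-miR-191 and 6.89 and 7.40 in controls. In each of these 3 the control of experiment 2 read higher than that of experiment 1, while the treated array of experiment 2 read lower than that of experiment 1. Across the 40 genes the changes of both experiments correlated at Pearson r = 0.55 and Spearman rho = 0.47, against 0.68 and 0.58 over all genes, as a description over genes that share 4 arrays.

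**Figure D3:**
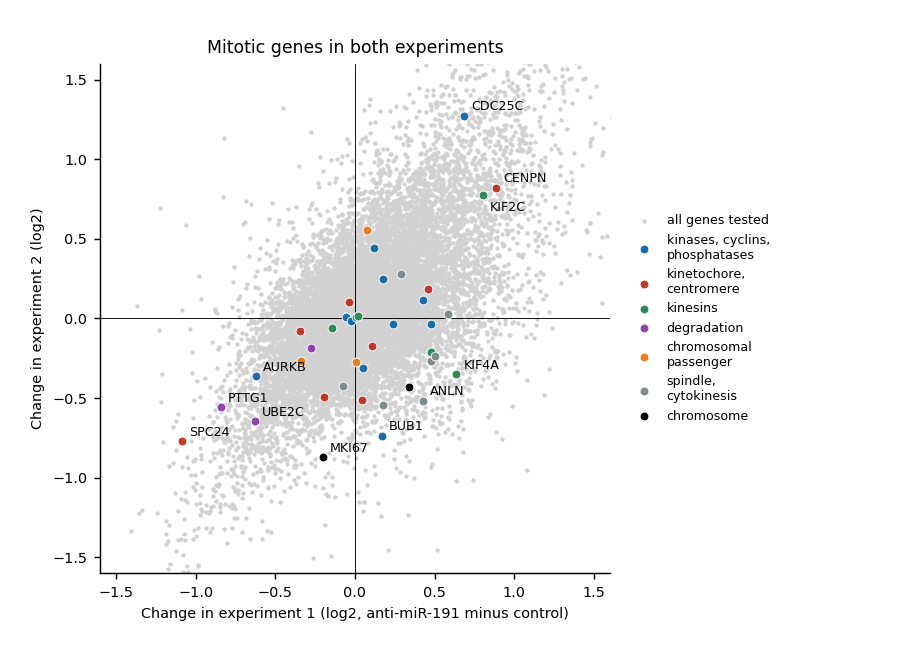
Change in experiment 1 (horizontal axis) against change in experiment 2 (vertical axis), each as treated minus control in log2 units, for the 40 tested mitotic genes by role (colours) and for all genes tested whose changes lie inside the axes (grey). CDC25C, KIF2C and CENPN lie at the upper right and SPC24, PTTG1 and UBE2C at the lower left, while 14 mitotic genes lie at the lower right and 2 at the upper left.

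A change of at least 1.5-fold the same way in both experiments was seen for 5 of the 40 genes. CDC25C, KIF2C and CENPN were higher (7.5%, against 6.45% of all genes), and SPC24 and UBE2C were lower (5%, against 2.22%). PTTG1, with changes of -0.84 and -0.56, lay just inside that limit in experiment 2.

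The CHR letters were also set beside the changes. Of 36 tested genes with promoter sequence, 20 held the letters before the start site, and 1 of these was called (CDC25C). Of the other 16, 4 were called (KIF2C, CENPN, SPC24 and PTTG1), beside the 13.9% called over all genes. CENPN holds the letters elsewhere in its window, and the difference between these small groups was not tested. The median size of the change, whatever its sign, was 0.13 with the letters and 0.28 without them. Among the windows printed above, PLK1, CCNB2, KIF23 and CDC25B belong to genes with changes between -0.02 and 0.02, CDC20 to one with a change of -0.23, and CDC25C to one that rose. These windows do not stand for all 20 genes with the letters, whose changes ran from -0.54 (MKI67) to 0.98 (CDC25C). Without the letters the changes ran from -0.93 to 0.86.

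Marker genes bear on how bright these rows were. Of 8 liver markers 7 were measured, and ALB, APOA1, APOB, TTR, AFP and SERPINA1 read above 8.5 on every array, while FGB read between 4.72 and 5.59. Summed over the 7 liver markers the values were between 63.7 and 66.9 after anti-miR-191 and between 67.6 and 69.6 in controls, and 1 of them, TTR, passed the test. The part of this difference in the changes of the mitotic genes was not tested. Of 18 markers of blood, vessel, mesenchymal, squamous and neuronal cells 16 were measured, 4 of them dim, with values summing to between 67.2 and 67.4 after anti-miR-191 and between 66.6 and 67.8 in controls, and none passed the test. Except LYZ, which read above 9.2 on every array, they lay between 2.44 and 5.46 after anti-miR-191 and between 2.30 and 5.50 in controls. Probe sets differ in brightness, so this sets no single limit. The control means of 28 of the 49 measured mitotic genes fell below 5.50, among them the 3 that rose, so CDC25C, KIF2C and CENPN are not shown to be above background in control cells. Their folds are thus ratios of RMA values and could be lower bounds. SPC24, UBE2C and PTTG1 lay above it.

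Other genes of the same pathways were examined in 8 lists of 155 genes, of which 141 were tested. Over all lists 17 rose and 4 fell, which is 12.1% and 2.84% of those tested, close to the background shares of 10.1% and 3.77%. The median change over the lists was 0.11. Without the block 6 of the 141 were called, all among the 21 (ANAPC11, CDCA3, CENPM, E2F3, KIF5A and WEE1), against 3.91% of all genes. In that fit limma's adjusted p of the other 15 lay between 0.0596 and 0.224. CENPL and NEK7 had control means below the limit on dim rows of 3.41, so they entered the tests through their treated arrays alone, and without the 5 tested genes that have 1 group below that limit the counts were 15 higher and 4 lower of 136. For 10 of the 17 that rose (CDC14A, CDC26, CENPL, E2F3, HASPIN, KIF13B, KIF5A, MASTL, NEK7 and WEE1) the control mean lay below 5.50, so their control levels are not shown to be above background and the changes given are those of the RMA values.

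Mitotic kinases, phosphatases and their partners gave 7 of the 17 rises. Of 16 tested kinases, phosphatases and partners outside the 50 genes, 7 rose (43.8%, against 10.1% of all genes) and 0 fell in limma's paired fit. In that fit 8 had an unadjusted p under 0.05, against 3975 of all 14147 genes. Without the block 1 was called, against 3.91% of all genes. Leaving out the 1 gene with a group below the limit on dim rows gave 6 of 15. The list was chosen with earlier results of these data known, and its share was not tested. Its median change was 0.26. WEE1, the kinase that inhibits CDK1, read 6.57 and 7.50 after anti-miR-191, against 5.15 and 5.35 in controls. It rose 3.45-fold on the RMA scale (1.79 ± 0.20, limma's adjusted p = 0.00303, and 0.0372 without the block). Its control mean, like that of CDC14A, lay below 5.50 and is not shown to be above background. CDC14A, a phosphatase that acts on CDK substrates, read 5.21 and 6.36 after anti-miR-191, against 4.26 and 4.08 in controls, and rose by 1.62 ± 0.28. CDC25A, the CDC25 phosphatase that also acts at the start of S phase, read 7.01 and 7.78 after anti-miR-191, against 6.25 and 6.27 in controls, and rose 2.19-fold. Thus an inhibitor and an activator of CDK1 rose together, and in all 3 genes both treated arrays lay above both controls. The kinase NEK7 had a change of 0.81 ± 0.15 and the limit given above, and NEK9, MASTL and HASPIN rose by between 0.60 and 0.67. The call of HASPIN ended under each scaling tried. Those of NEK9 and MASTL ended under quantile normalization, where the list's count was 4.

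Of the APC/C list 2 of 20 genes rose and 1 fell, which is 15% against 13.9% of all genes. The list's median change was 0.30. Of its 20 genes 14 read higher in both experiments and 4 read lower in both, against 36.5% and 33% of all genes. The 3 degradation genes above thus went the other way from most of this list. ANAPC11, the RING subunit that binds the ubiquitin-conjugating enzyme, read 6.43 and 6.495 after anti-miR-191, against 7.52 and 7.88 in controls. ANAPC11 fell by 1.24 ± 0.15 (adjusted p = 0.00425, and 0.0278 without the block) and showed no overlap. CDC26, a small APC/C subunit, rose by 0.62 ± 0.14, and MAD2L1BP, which helps to switch off the checkpoint, rose by 0.65 ± 0.17. The call of MAD2L1BP ended under each scaling tried (adjusted p between 0.0561 and 0.105). ESPL1, which encodes separase, had a change of 0.19 ± 0.15.

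Of 23 further kinetochore genes tested, 2 rose and 1 fell, which is 13% against 13.9% of all genes. CENPM, of the same centromere network as CENPN, read 7.31 and 7.40 after anti-miR-191, against 8.09 and 8.39 in controls, and fell by 0.88 ± 0.15 (adjusted p = 0.0104, and 0.0463 without the block). CENPL, which pairs with CENPN, read 3.76 and 4.45 after anti-miR-191, against 3.13 and 3.16 in controls, a change of 0.96 ± 0.19 that has the same limit as NEK7. HJURP, the chaperone that deposits CENPA, rose 1.57-fold (0.65 ± 0.15), with the call lost under quantile normalization (adjusted p = 0.0709).

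The other lists held few calls, and over all genes 10.1% were called higher and 3.77% lower. Called higher were 8.7% of the transport kinesins and 5.88% of the condensin and cohesin genes. Of the further spindle and cytokinesis genes 6.67% were called lower, and no share of these small lists was tested. None of 4 further mitotic kinesins passed in limma's paired fit (0 also at an unadjusted p under 0.05). Among 23 kinesins of transport and other tasks, KIF5A rose 2.31-fold (1.21 ± 0.15) and KIF13B rose by 0.55 ± 0.14. The call of KIF13B ended under each scaling tried and with an intensity trend (adjusted p between 0.0520 and 0.0912). Of 17 condensin and cohesin genes WAPL, which releases cohesin from chromosomes, rose by 0.64 ± 0.14, a call lost under quantile normalization (adjusted p = 0.0670). Of 15 further spindle and cytokinesis genes CDCA3, a trigger of protein degradation at mitotic entry, read 6.47 and 6.22 after anti-miR-191, against 7.31 and 7.40 in controls, and fell by 1.01 ± 0.16 (adjusted p = 0.00763, and 0.0326 without the block).

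Regulators of cell cycle transcription were called at a share near the background. Of 23 tested, 3 rose and 1 fell, which is 17.4% against 13.9% of all genes. MYBL2, which joins the complex that activates mitotic promoters, read 8.89 and 8.93 after anti-miR-191, against 9.56 and 9.41 in controls, and fell by 0.57 ± 0.15 (adjusted p = 0.0412, and 0.0883 without the block). FOXM1, its partner in G2, read 7.88 on both anti-miR-191 arrays, against 8.32 and 8.48 in controls, a change of -0.52 ± 0.15 that just missed the threshold (adjusted p = 0.0540). Both factors were lower on both treated arrays than on both controls. E2F6, a repressor, rose by 1.03 ± 0.18 and E2F3 rose by 0.97 ± 0.17, while E2F1 had a change of -0.19 ± 0.15. The control mean of E2F3 lay below 5.50 and is not shown to be above background. CDKN1A, the p21 inhibitor of cyclin-dependent kinases, rose by 0.71 ± 0.16 (adjusted p = 0.0274, and 0.152 without the block). Under quantile normalization the calls of MYBL2 and CDKN1A were lost (adjusted p = 0.0594 and 0.0528), leaving 2 of this list.

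**Figure D4:**
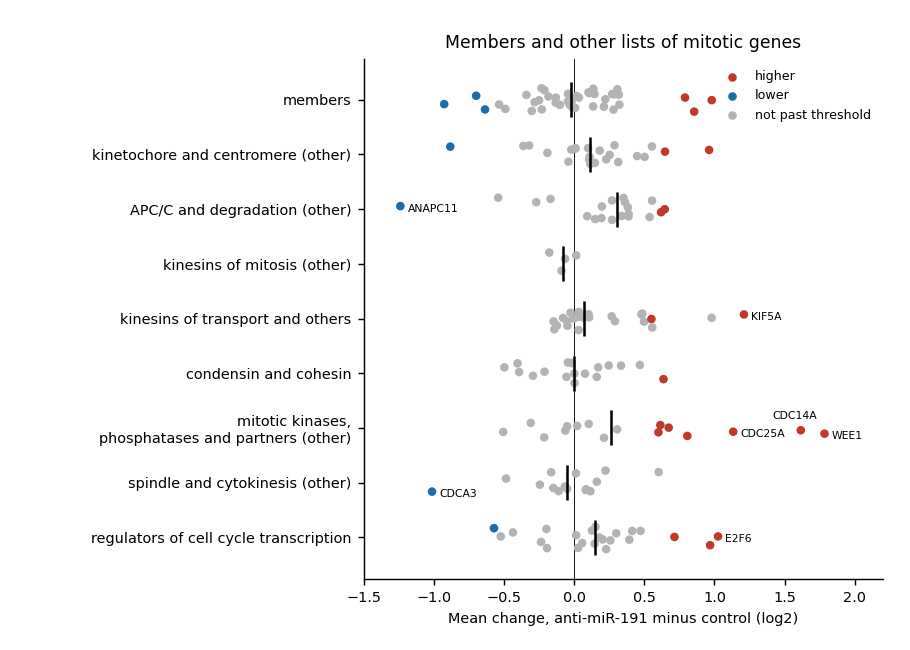
Mean change (treated minus control, log2, horizontal axis) of the 40 tested mitotic genes and of the tested genes of the 8 other lists; each point is a gene, red higher and blue lower in limma's paired fit, grey not past the threshold, with the median as a black bar. Genes with a change past 1 unit are named, with WEE1 at 1.79 and CDC14A at 1.62 on the right and ANAPC11 at -1.24 on the left.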

How the data were processed

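The authors deposited a table of log2 intensities from 1-colour Affymetrix arrays. Per the submitters' processing notes it was produced by RMA (background correction, scaling between arrays and summary of probes) with Affymetrix Expression Console. No version is stated in those notes, nor the set of arrays scaled together. That the logarithm has base 2 was inferred from the method and from the span of the values. GEO's platform annotation, dated 2016, gave 1 symbol for 19460 of 33297 rows, several for 1754 and none for 12083.

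Rows in the lowest 33.3% by mean level (below 3.41) were left out. limma 3.58.1 (lmFit and eBayes, R 4.3.3) was fitted over all 14147 genes, two-sided, with Benjamini-Hochberg adjustment and a threshold of 0.05. The experiment was the block, since the duplicates come from independent studies, per the series text, and the titles number them. Same-numbered arrays deviated together from their group means (r = 0.335 over genes, a single value with 2 arrays per group). The paired fit has 1 residual degree of freedom and 6.60 prior ones. The fits were tested on simulated data, with noise set from the paired fit and the differences between experiments kept. Of 71 genes changed by 0.585 log2 units the paired fit called 49 and the unpaired fit 0. Of 66 genes changed by 1 unit they called 66 and 14. Of 13947 unchanged genes they called 16 and 0. These rates hold for that setting alone.

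Members and lists were chosen with earlier results of these data known. Named are all members past the threshold, the 3 largest changes per role, up to 4 called genes of each other list, and FOXM1, MYBL2, CDKN1A and E2F1 whatever their values, with a further gene of that rule not analysed here. NEK9, MASTL, HASPIN and ESPL1 were named after their values were seen. Other members were described to account for the whole list. Alternatives covered the block, dim rows, scaling, moderation, rows per gene, fold and single arrays.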

Additional observations from a re-analysis of the deposited data

How the results depend on the processing

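The 6 called members (CDC25C, CENPN, KIF2C, SPC24, PTTG1 and UBE2C) passed in limma's paired fit under each of 8 alternatives that kept the replicate block: all rows kept, a stricter limit on dim rows, median centring, quantile normalization, cyclic loess, a trend, robust moderation and the mean of all rows. With no replicate block the count was 1 of 40 (SPC24), and the same fit gave 3 after median centring (CDC25C, KIF2C and SPC24), against 6 with the replicate block. Leaving out single arrays is possible in the unpaired fit alone. SPC24 lost its call when any single array of either group was left out, with changes between -0.80 and -1.06. No gene, among the members or among all genes tested, kept a call under every omission. The lone array of a group is then assumed to vary like the other group. Over the other lists the count of 21 calls was 12 under quantile normalization and 6 with no replicate block. FOXM1 passed with all rows kept (adjusted p = 0.0457) and after cyclic loess (adjusted p = 0.0482). No member changed by 2-fold the same way in both experiments (0 of 40, against 5 at 1.5-fold and 7 at the lower fold tried). The scalings moved the median change of all genes by at most 0.036. The paired test reads each change against the disagreement of 2 experiments, moderated across genes, and 2 arrays per group limit every result.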
